A study of Drosophila melanogaster with 6 samples.

Results

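The genes described here encode the subunits of the proteasome. They were chosen by name, as every gene whose symbol starts with Prosalpha, Prosbeta, Rpt or Rpn followed by a digit, and 48 of the 17559 genes of the count table met that rule. Of these, 32 are the main copies, with 14 in the 20S core, 10 in the base and 8 in the lid, and 16 are paralogs whose symbol carries a further T or R. RNA was measured in *Drosophila melanogaster* wing discs of wandering L3 larvae, the last larval stage, in 3 libraries with *Nup98-96* RNAi (UAS-Nup98 RNAi HM05048) and 3 control libraries with *white* RNAi (UAS-white RNAi JF01540), each made from polyadenylated RNA of 40 pooled discs. Larvae of both groups also carried UAS-P35, which encodes a baculovirus inhibitor of caspases, *ap*-Gal4, UAS-GFP and *tub*-Gal80TS. Gal80TS blocked Gal4 during 4 days at 18°C, and expression was then released at 28°C for 72 h. Since *ap*-Gal4 drives in the dorsal compartment, every library also holds RNA of ventral cells without the RNAi. The p-values given below reflect the variation among pools only, and fewer cells of a type cannot be told apart from less RNA per cell.

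The proteasome degrades proteins that carry ubiquitin chains. Its 20S core is a barrel of alpha rings, which gate the entry, and beta rings, in which 3 subunits (Prosbeta1, Prosbeta2 and Prosbeta5) carry the proteolytic sites. A 19S regulatory particle caps the barrel. Its base holds the ring of 6 Rpt ATPases, which unfold the substrate and feed it into the core, together with Rpn1, Rpn2 and the ubiquitin receptors Rpn10 and Rpn13. Its lid holds Rpn11, which removes the ubiquitin chain, its partner Rpn8 and scaffold subunits. Dividing tissues such as discs need the complex for the cell cycle, and in flies as in mammals subunit genes are known to be induced together by cap-n-collar transcription factors when proteasome activity is low.

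Library totals were 70342787 to 100205246 counts with *Nup98-96* RNAi and 93428696 to 110330112 counts with *white* RNAi. CPM are counts scaled, with TMM factors, to the total over the genes tested in the same library. The RNAi target *Nup98-96* was at 317, 302 and 314 CPM in *Nup98-96* RNAi libraries, against 331, 335 and 316 CPM in *white* RNAi libraries. The difference was -0.07 on the log2 scale (adjusted p = 0.118 in edgeR's quasi-likelihood test). Reads of the hairpin and of the gene are not separated in these counts. The control target *w* was at 861 to 1071 CPM with *Nup98-96* RNAi and 485 to 573 CPM with *white* RNAi. Here too, reads of the gene and of any transgene that carries *w* sequence, the hairpin included, are not separated. *white* RNAi library 1 stood apart by its fat body genes, whose 6 markers summed to 50.3 to 85.6 CPM in *Nup98-96* RNAi libraries, against 3482 CPM in *white* RNAi library 1 and 21.0 and 59.1 CPM in the other *white* RNAi libraries. The wing disc identity was present in both groups, with 1017 to 1030 CPM over 4 epithelial markers with *Nup98-96* RNAi and 1343 to 1446 CPM with *white* RNAi.

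Nearly all main copies were lower in *Nup98-96* RNAi discs, and by similar amounts. The summed level of the 32 main copies was 5010, 4926 and 5091 CPM in *Nup98-96* RNAi discs, against 6125, 6627 and 6729 CPM in *white* RNAi discs, a difference of -22.9%. All 32 had a negative log2 fold change, as 49.9% of the 7942 genes tested did. Their median was -0.36, with a range of -0.55 to -0.09, beside a median of 0.00 and quartiles of -0.24 and 0.29 over all genes tested. The quartiles of the main copies were -0.42 and -0.33. The SD of the log2 fold changes, which weighs extreme genes more than quartiles do, was 0.0907 among the main copies and 1.12 over all genes tested. Of the 32 main copies 28 lay between -0.5 and -0.2, and 28.3% of all genes tested lay within the full range of the main copies. In 31 of the 32 the 3 *Nup98-96* RNAi libraries were all below the 3 *white* RNAi libraries, and *Rpt4* was the exception.

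The 34 members that passed the filter on low counts, the 32 main copies with *Prosalpha1R* and *Rpt3R*, were tested in 1 fit with all other genes (edgeR's quasi-likelihood test with Benjamini-Hochberg adjustment). Past an adjusted p of 0.05 at any fold change, 32 of the 34 were lower and none was higher, beside 32.5% of all genes tested lower and 33.3% higher. The groups did not overlap, with *Nup98-96* RNAi lower, in 32 of the 34 and in 36.2% of all genes tested, beside 0 members and 36.6% of all genes with *Nup98-96* RNAi higher. With a minimum fold change added (0.5 on the log2 scale, in either direction), 3 members were called lower (*Rpn5*, *Prosbeta3* and *Rpn1*) and 0 higher, beside 11.2% of all genes called lower and 15.3% called higher. No member had a positive log2 fold change in this fit, at any p, and DESeq2 and voom also called 3 members lower and 0 higher. The 3 called members lay within 0.06 of the fold threshold. In edgeR's glmTreat, which tests against a log2 fold change of 0.5 itself, 0 members were called, with 0 at an unadjusted p under 0.05.

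The differences of most main copies were below the fold threshold and large beside their errors. Standard errors of the main copies were 0.0337 to 0.0694, and the adjusted p was 0.000104 for *Rpn5* and at most 0.00751 for every main copy other than *Rpt4*. *white* RNAi library 1, with the high fat body markers, was also the *white* RNAi library with the lowest subunit levels, with a median of -0.08 relative to the *white* RNAi mean on the log2 scale, against 0.03 and 0.05 in libraries 2 and 3. The *Nup98-96* RNAi libraries were at -0.36, -0.38 and -0.34 on the same scale. Without that *white* RNAi library the median log2 fold change of the main copies was -0.39, all 32 were past an adjusted p of 0.05, and 5 members were called lower, with *Rpn8* and *Rpn13* added. Without *white* RNAi library 3 the median was -0.34 and only *Rpn5* was called.

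**Figure D1:**
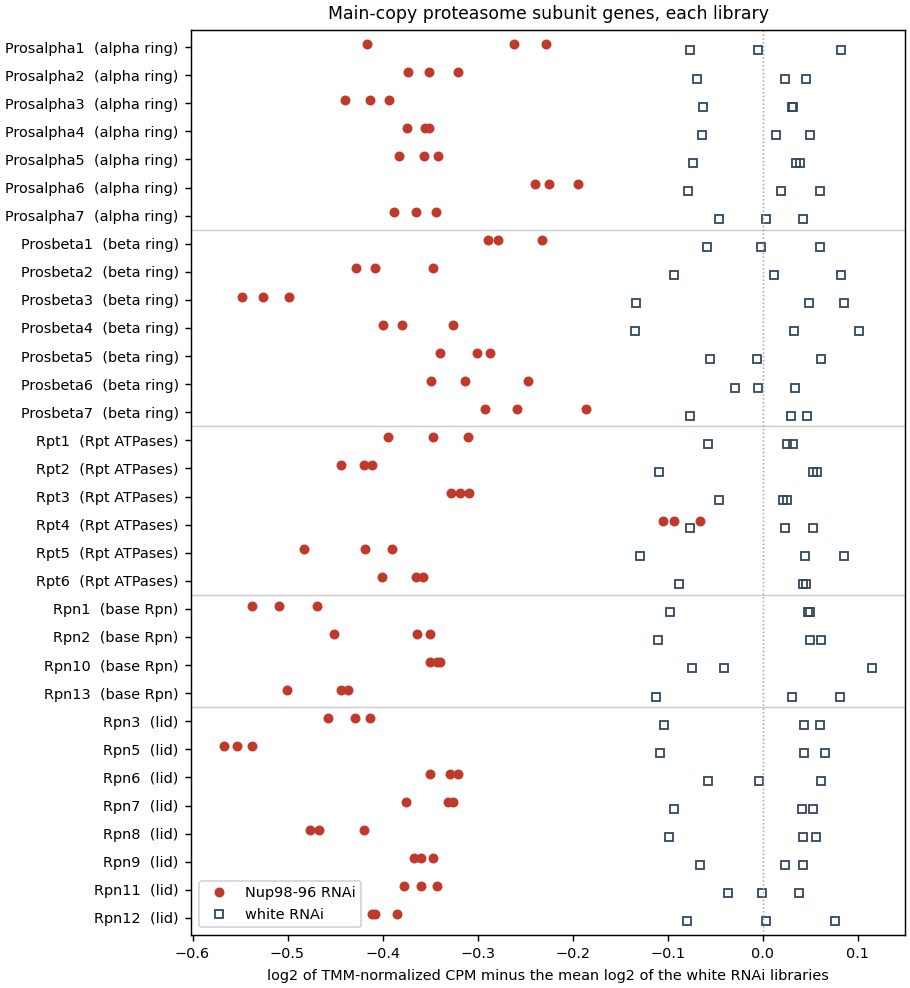
Level of each main-copy subunit gene in each library, as the log2 of TMM-scaled CPM minus the mean log2 of the 3 *white* RNAi libraries (x axis), with genes down the page by ring or particle. Filled circles are *Nup98-96* RNAi libraries and open squares *white* RNAi libraries. The circles lie left of the squares in every gene except *Rpt4*, and the leftmost square is *white* RNAi library 1 in each gene.

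Set side by side, the core, the base and the lid differed little from each other. The median log2 fold change was -0.35 in the 20S core (14 genes, range -0.53 to -0.22), -0.38 in the base (10 genes, range -0.51 to -0.09) and -0.38 in the lid (8 genes, range -0.55 to -0.33). In each of the 3 particles 1 gene was called lower, and past the adjusted p at any fold 14 of 14, 9 of 10 and 8 of 8 genes were lower. Summed over genes, the core was at 1832 ± 34.7 CPM in *Nup98-96* RNAi discs and 2320 ± 103 CPM in *white* RNAi discs (SD, n = 3 each), a difference of -21.1%. The base was at 1902 ± 34.1 CPM in *Nup98-96* RNAi discs and 2477 ± 137 CPM in *white* RNAi discs (SD, n = 3 each), a difference of -23.2%. The lid was at 1275 ± 15.3 CPM in *Nup98-96* RNAi discs and 1696 ± 84.1 CPM in *white* RNAi discs (SD, n = 3 each), a difference of -24.8%. No test was run between the particles.

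Whether the proportion of the particles to each other separated the groups depended on the measure. The ratio of the base to the core, as medians of CPM per kilobase of exon, was 0.791, 0.768 and 0.772 in *Nup98-96* RNAi libraries, against 0.768, 0.793 and 0.774 in *white* RNAi libraries. The ratio of the lid to the core was 0.751, 0.762 and 0.737 in *Nup98-96* RNAi libraries, against 0.763, 0.761 and 0.753 in *white* RNAi libraries. Both ratios of medians overlapped between the groups. On summed CPM they did not, with lid to core and base to core lower in every *Nup98-96* RNAi library than in any *white* RNAi library. The summed lid was at 1275, 1261 and 1291 CPM with *Nup98-96* RNAi, beside 1825, 1801 and 1870 CPM for the core. With *white* RNAi the lid was at 1601, 1725 and 1762 CPM, beside 2203, 2362 and 2396 CPM for the core. These ratios were not tested.

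**Figure D2:**
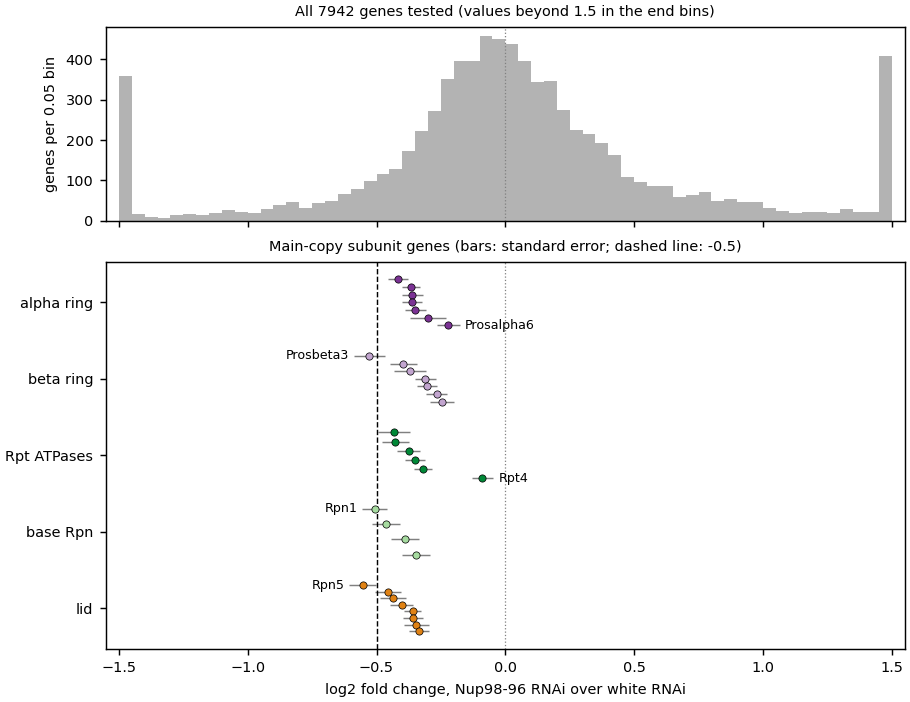
Upper panel, histogram of the log2 fold change of all 7942 genes tested, *Nup98-96* RNAi over *white* RNAi, in bins of 0.05. Lower panel, the 32 main copies by ring or particle on the same x axis, with bars for the standard error and a dashed line at -0.5. The subunits sit in a narrow band around -0.36, with *Rpn5*, *Prosbeta3* and *Rpn1* left of the dashed line and *Rpt4* nearest to 0.

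Among the alpha ring genes, whose products form the outer rings of the barrel, all 7 were lower past the adjusted p, with a median log2 fold change of -0.36, and none reached the fold threshold by edgeR, DESeq2 or voom. *Prosalpha3*, whose yeast counterpart carries the tail that closes the gate, fell furthest among them. It was at 134, 131 and 136 CPM in *Nup98-96* RNAi libraries, against 171, 182 and 182 CPM in *white* RNAi libraries. The log2 fold change was -0.42 (standard error, SE, 0.04, adjusted p = 0.000108 in edgeR's quasi-likelihood test), and the groups did not overlap. *Prosalpha6* moved least in the ring, with 180, 178 and 184 CPM in *Nup98-96* RNAi libraries and 199, 213 and 219 CPM in *white* RNAi libraries. Its log2 fold change was -0.22 (SE 0.04, adjusted p = 0.00378, same test), and here too the groups were apart. *Prosalpha2*, *Prosalpha4*, *Prosalpha5* and *Prosalpha7* lay between -0.37 and -0.35, so that 4 of the 7 genes of the ring differed by about the same proportion.

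*Prosalpha1* was the exception in level, not in direction. It was at 13.7, 15.6 and 15.3 CPM in *Nup98-96* RNAi libraries, against 17.4, 18.3 and 19.4 CPM in *white* RNAi libraries (log2 fold change -0.30 with a standard error of 0.07, adjusted p = 0.00751 in edgeR's quasi-likelihood test). The next gene on the same strand of chromosome 2R, 1734 bases away, is its tandem copy *Prosalpha1R*, which had 581, 879 and 875 counts in *Nup98-96* RNAi libraries and 1031, 1066 and 1258 counts in *white* RNAi libraries (log2 fold change -0.32 with a standard error of 0.09, adjusted p = 0.0175, same test). Its adjusted p passed 0.05 upwards without *Nup98-96* RNAi library 1 (0.0537) and without *white* RNAi library 3 (0.0514). Reads shared by such near-identical copies may be split between them or dropped, and how multiply mapped reads were counted is not given in the sources used here, so both levels are uncertain. With the counts of the pair summed, an alternative chosen after the data were seen, the log2 fold change was -0.31 (adjusted p = 0.00495).

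Of the beta ring genes, all 7 were lower past the adjusted p, with a median log2 fold change of -0.31. The 3 with proteolytic sites were *Prosbeta1* (caspase-like activity), *Prosbeta2* (trypsin-like) and *Prosbeta5* (chymotrypsin-like), with log2 fold changes of -0.27, -0.40 and -0.31. Their median of -0.31 lay beside -0.34 for the 4 genes without such sites. *Prosbeta5*, the usual target of proteasome inhibitors, was at 164, 160 and 166 CPM in *Nup98-96* RNAi libraries, against 194, 201 and 211 CPM in *white* RNAi libraries. The lowest value of the ring in log2 fold change belonged to a structural subunit, *Prosbeta3*. It was at 113, 111 and 115 CPM in *Nup98-96* RNAi libraries, against 148, 168 and 173 CPM in *white* RNAi libraries, with a log2 fold change of -0.53 (SE 0.06, adjusted p = 0.000276 in edgeR's quasi-likelihood test). *white* RNAi library 1 was the nearest to the *Nup98-96* RNAi libraries, and no library crossed. The call of *Prosbeta3* was lost, by the fold threshold, with upper-quartile scaling (-0.49) and without *white* RNAi library 3 (-0.48). *Prosbeta7* moved least, with 150, 146 and 158 CPM in *Nup98-96* RNAi libraries and 170, 185 and 183 CPM in *white* RNAi libraries (log2 fold change -0.25, adjusted p = 0.00336, same test).

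Of the 6 genes for the ATPase ring, 5 were lower past the adjusted p, and *Rpt4* was not. *Rpt5*, one of the ATPases whose tail docks into the core, had the lowest log2 fold change of the ring. It was at 170, 163 and 173 CPM in *Nup98-96* RNAi libraries, against 208, 234 and 241 CPM in *white* RNAi libraries (log2 fold change -0.43 with a standard error of 0.06, adjusted p = 0.000792 in edgeR's quasi-likelihood test). *Rpt1*, *Rpt2*, *Rpt3* and *Rpt6* had log2 fold changes of -0.35, -0.43, -0.32 and -0.38. Without *Rpt4* the median of the ring was -0.38, close to that of the lid.

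*Rpt4*, which pairs with Rpt5 in the assembled ring, was at 167, 165 and 170 CPM in *Nup98-96* RNAi libraries, against 169, 181 and 185 CPM in *white* RNAi libraries. *Nup98-96* RNAi library 3 lay above *white* RNAi library 1, so the groups overlapped. The log2 fold change was -0.09 (95% interval -0.19 to 0.01, adjusted p = 0.101 in edgeR's quasi-likelihood test), and it was past an adjusted p of 0.05 only without *white* RNAi library 1, at -0.13. Relative to the median of the 5 other *Rpt* genes of the same library, *Rpt4* was at -0.08, -0.08 and -0.04 on the log2 scale in *Nup98-96* RNAi libraries, against -0.33, -0.38 and -0.36 in *white* RNAi libraries. In that ratio the groups were well apart, so that *Rpt4* took a larger part of the ATPase transcripts in every *Nup98-96* RNAi library. *Rpt4* (X, 6289470 to 6291245 in BDGP6) shares 93 of its 1465 exon bases with *wuho* on the other strand, and counting was without strand. *wuho* was at 34.0 ± 0.829 CPM in *Nup98-96* RNAi discs and 30.3 ± 0.606 CPM in *white* RNAi discs (SD, n = 3 each), and its part in the *Rpt4* counts was not tested.

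The 4 other base genes were all lower past the adjusted p, with a median log2 fold change of -0.43. *Rpn1*, a large scaffold that docks ubiquitin receptors and the deubiquitinase Usp14, was at 281, 275 and 289 CPM in *Nup98-96* RNAi libraries, against 374, 414 and 413 CPM in *white* RNAi libraries. All *Nup98-96* RNAi libraries were below all *white* RNAi libraries, and the log2 fold change was -0.51 (SE 0.05, adjusted p = 0.000125 in edgeR's quasi-likelihood test). This value is next to the fold threshold, and the call was lost with upper-quartile scaling (-0.47), with library size only (-0.48), without *Nup98-96* RNAi library 2 (-0.50) and without *white* RNAi library 2 or 3 (-0.48 each). The other scaffold, *Rpn2*, had a log2 fold change of -0.39. Of the ubiquitin receptors, *Rpn13* was at 113, 108 and 113 CPM in *Nup98-96* RNAi libraries, against 142, 156 and 162 CPM in *white* RNAi libraries (-0.46), and *Rpn10* at 145, 144 and 145 CPM in *Nup98-96* RNAi libraries, against 174, 178 and 199 CPM in *white* RNAi libraries (-0.35, adjusted p = 0.00115, same test). Both receptors were thus lower in each *Nup98-96* RNAi library than in any *white* RNAi library.

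The lid genes were all lower past the adjusted p, between -0.55 and -0.33. *Rpn5*, a scaffold subunit of the lid (3R, 5789493 to 5791569 in BDGP6), had the lowest log2 fold change of the 34 members tested. It was at 209, 207 and 212 CPM in *Nup98-96* RNAi libraries, against 285, 316 and 321 CPM in *white* RNAi libraries, a difference of -31.9% (log2 fold change -0.55 with a standard error of 0.05, adjusted p = 0.000104 in edgeR's quasi-likelihood test). The *Nup98-96* RNAi libraries lay close together and far below the *white* RNAi libraries, and the log2 fold change was -0.61 to -0.52 when each library was left out in turn. Of the alternatives run, only glmTreat lost the call of *Rpn5*. *Rpn6*, whose product clamps the lid to the core in yeast, moved least in the lid, with 205, 202 and 206 CPM in *Nup98-96* RNAi libraries and 247, 257 and 268 CPM in *white* RNAi libraries (log2 fold change -0.33, adjusted p = 0.000331, same test). *Rpn11*, the deubiquitinase, was at 151, 149 and 153 CPM in *Nup98-96* RNAi libraries, against 189, 194 and 199 CPM in *white* RNAi libraries (-0.36, adjusted p = 0.000115, same test). Its partner *Rpn8* was at -0.46, and the scaffold genes *Rpn3*, *Rpn7*, *Rpn9* and *Rpn12* were at -0.44, -0.35, -0.36 and -0.40. The enzyme and its partner thus moved within the range of the scaffold genes.

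Per length, the main copies stood at similar levels apart from *Prosalpha1*. Without it the highest was 2.69-fold above the lowest in *Nup98-96* RNAi discs and 2.48-fold in *white* RNAi discs. The highest was *Prosalpha2*, with 179 ± 3.25 CPM per kilobase of exon in *Nup98-96* RNAi discs and 228 ± 9.54 in *white* RNAi discs, and the lowest was *Rpn13*, with 66.6 ± 1.60 in *Nup98-96* RNAi discs and 91.7 ± 6.30 in *white* RNAi discs (SD, n = 3 each). Core genes stood above the regulatory particle, with medians of 136 CPM per kilobase in *Nup98-96* RNAi discs and 176 in *white* RNAi discs, beside 105 with *Nup98-96* RNAi and 136 with *white* RNAi for the base, and 102 with *Nup98-96* RNAi and 132 with *white* RNAi for the lid. The order of the genes was much the same in both groups (Spearman's rho 0.93 across the 32 genes, which are not independent and share their libraries). The largest moves in that order were those of *Rpt4*, at rank 16 with *Nup98-96* RNAi and rank 28 with *white* RNAi, and *Prosbeta3*, at rank 14 with *Nup98-96* RNAi and rank 5 with *white* RNAi. Of the 31 pairs of neighbours in the order, 18 with *Nup98-96* RNAi and 24 with *white* RNAi differed by less than the larger SD of the pair.

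**Figure D3:**
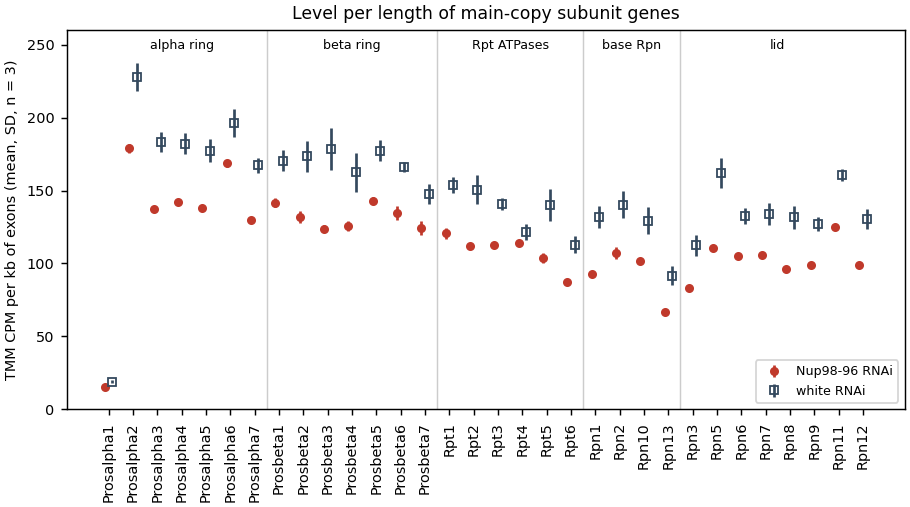
Level per length of each main-copy gene, in TMM-scaled CPM per kilobase of merged exons (y axis), as mean and SD of 3 libraries, with filled circles for *Nup98-96* RNAi and open squares for *white* RNAi. Core genes are at the left and lid genes at the right, *Prosalpha1* lies near the bottom (15.4 with *Nup98-96* RNAi and 18.9 with *white* RNAi), and circle and square lie closest together, apart from *Prosalpha1*, for *Rpt4* (114 with *Nup98-96* RNAi and 121 with *white* RNAi).

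Relative to the complex as a whole, the genes departed from the common difference by at most 0.25 on the log2 scale in either direction. The level of each gene was set against the median of the 32 main copies in the same library, on the log2 scale. On that measure the groups did not overlap in 16 of the 32 genes, with 11 lower and 5 higher in *Nup98-96* RNAi discs. No share over all genes tested was worked out on this measure, so the count is not read as a result about single subunits. *Rpn5* was lower by 0.21 in *Nup98-96* RNAi discs, *Prosbeta3* by 0.18 and *Rpn1* by 0.16, and *Rpt4* was higher by 0.25 and *Prosalpha6* by 0.12. The 11 lower genes also included *Rpn13*, *Rpn8*, *Rpn3*, *Rpt5*, *Rpt2*, *Prosalpha3*, *Rpn12* and *Prosbeta2*, at -0.12 to -0.05, and the higher ones *Prosbeta7*, *Prosbeta1* and *Prosbeta5*, at 0.03 to 0.10. These values are descriptions, with no test.

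The main copies are spread over the genome, although a few lie near each other. Examples are *Rpn9* (3R, 23731375 to 23733462) with *Rpt5* (3R, 23752876 to 23754623), and *Rpn12* (3L, 16583028 to 16584022) with *Prosbeta6* (3L, 16609400 to 16610418). The 32 main copies lie on all large arms, with 4 on 2L, 10 on 2R, 5 on 3L, 9 on 3R and 4 on X. The median log2 fold change by arm was -0.37, -0.36, -0.40, -0.39 and -0.34 in that order. Exons of 13 main copies overlap those of a gene on the other strand, and their median was -0.36, the same as for the 19 without such an overlap. The largest overlap was that of *Rpt6*, which shares 182 of 1404 exon bases with *CG1801*, a gene at 0.151 CPM with *Nup98-96* RNAi and 0.112 CPM with *white* RNAi. Across the 32 genes the log2 fold change had a Spearman's rho of -0.30 with exon length and 0.09 with the level per length in *white* RNAi discs.

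Most of the paralogs, several of which are known from the testis, had few reads in wing discs of either group. *Prosalpha1R*, at 8.98 ± 0.948 CPM in *Nup98-96* RNAi discs and 11.2 ± 0.548 CPM in *white* RNAi discs (SD, n = 3 each), and *Rpt3R* passed the filter. The other 14 averaged under 1 CPM in both groups, with *Rpt6R* the highest at 0.626 CPM in *Nup98-96* RNAi discs and 0.567 CPM in *white* RNAi discs. *Rpt3R* was at 3.83, 4.29 and 4.58 CPM in *Nup98-96* RNAi libraries, against 3.89, 4.39 and 4.86 CPM in *white* RNAi libraries. The groups overlapped, with a log2 fold change of -0.05 (95% interval -0.37 to 0.27, adjusted p = 0.766 in edgeR's quasi-likelihood test), whose sign turned without *Nup98-96* RNAi library 1 (0.017) or *white* RNAi library 3 (0.033). Its main copy *Rpt3*, at 176, 175 and 174 CPM in *Nup98-96* RNAi libraries and 212, 222 and 222 CPM in *white* RNAi libraries, was lower by 0.32 on the log2 scale. *Rpn12R* had 0 counts in every library, which allows up to 0.0116 CPM over the *Nup98-96* RNAi libraries and 0.0101 CPM over the *white* RNAi libraries, for counting error only. Of 15 matched testis markers, 12 were under 1 CPM in both groups, and the sum of all was 25.5 to 31.6 CPM with *Nup98-96* RNAi and 26.3 to 30.0 CPM with *white* RNAi, nearly all of it from *mia* and *bam*. Among the low testis markers, *Mst87F* had 32, 34 and 41 counts in *Nup98-96* RNAi libraries and 0, 0 and 4 in *white* RNAi libraries, and *Mst98Ca* had 3, 31 and 1 in *Nup98-96* RNAi libraries and 0 in each *white* RNAi library. The meiotic arrest gene *topi* had 63, 145 and 112 counts in *Nup98-96* RNAi libraries and 51, 43 and 66 in *white* RNAi libraries, whereas *can* had 0, 2 and 0 with *Nup98-96* RNAi and 8, 9 and 10 with *white* RNAi. In the fit without a filter the adjusted p of *Mst87F*, *Mst98Ca*, *topi* and *can* was 0.00161, 0.0344, 0.0105 and 0.0379 (edgeR), so that 3 of these markers were called higher and 1 lower, and their part in the paralog counts was not tested.

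At these low counts 8 of the untested paralogs had reads with *Nup98-96* RNAi and 0 with *white* RNAi. In 5 of them (*Prosalpha3T*, *Prosalpha6T*, *Prosbeta2R1*, *Prosbeta5R1* and *Rpt4R*, with 1 to 8 counts) all reads were in *Nup98-96* RNAi library 2, which also held most reads of *Mst98Ca*. Of all 7079 genes below the filter that had counts, 17.3% had reads with *Nup98-96* RNAi only and 5.78% with *white* RNAi only. Genes with reads in a single library made up 4.73% for *Nup98-96* RNAi library 2, 1.86% and 3.11% for *Nup98-96* RNAi libraries 1 and 3, and 1.07% to 1.5% for each *white* RNAi library. The other 3 had reads in all *Nup98-96* RNAi libraries. *Prosbeta4R1* had 7, 19 and 8 counts in *Nup98-96* RNAi libraries, *Prosbeta4R2* had 15, 26 and 11, and *Prosbeta5R2* had 2, 4 and 5. Each had 0 counts in every *white* RNAi library. Their pooled levels with *Nup98-96* RNAi were 13.0, 19.95 and 4.22 times a floor of 3 counts over the *white* RNAi libraries, in that order. These ratios leave out the error of the *Nup98-96* RNAi counts and the variation between libraries, so they are not lower bounds. All 3 were below the filter on low counts, and in a fit without one their adjusted p was 0.00545, 0.00162 and 0.0471 in that order (edgeR), beside 10.8% of the genes below the filter called higher in that fit and 3.84% called lower. By contrast *Prosbeta2R2* had 5, 27 and 18 counts in *Nup98-96* RNAi libraries and 16, 15 and 19 in *white* RNAi libraries, and *Rpn13R* had 11 counts in all in each group.

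*Prosbeta4R1* and *Prosbeta4R2* lie close together on 2L, inside a stretch of 14 neighbouring genes that all had 0 counts in every *white* RNAi library (2L, 2598608 to 2672186 in BDGP6, 73579 bases). Of these 14 genes, 10 had counts in at least 1 *Nup98-96* RNAi library and 9 in every one. Summed over the stretch, the counts were 118, 150 and 105 in *Nup98-96* RNAi libraries, against 0, 0 and 0 in *white* RNAi libraries. The stretch also holds the receptor genes *Or23a* and *Gr23a*, and *Prosbeta4R2* shares 69 of its 1647 exon bases with *Or23a* on the same strand. Reads of such adjoining genes and copies may be split between them. On both sides genes had counts in both groups, among them *Tmtc1* with 20, 40 and 38 counts in *Nup98-96* RNAi libraries and 19, 26 and 19 in *white* RNAi libraries. A difference between the fly stocks over this stretch and an effect of the RNAi cannot be told apart here, so the folds of *Prosbeta4R1* and *Prosbeta4R2* are differences between the libraries.

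**Figure D4:**
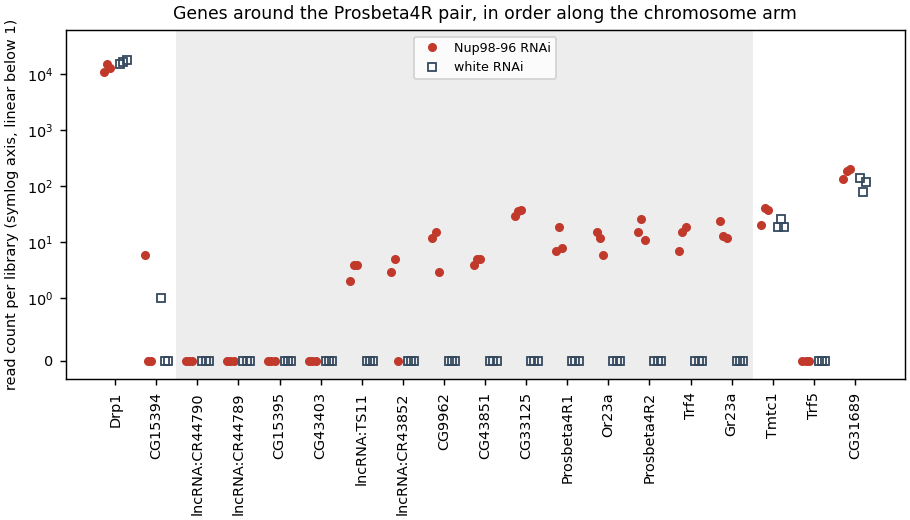
Read counts per library (y axis, symmetric log scale, linear below 1) of the genes around the *Prosbeta4R* pair, in their order along 2L, with filled circles for *Nup98-96* RNAi and open squares for *white* RNAi. The shaded 14 genes are at 0 in all *white* RNAi libraries, and 10 of them have counts with *Nup98-96* RNAi, while genes outside the shading, such as *Drp1* and *Tmtc1*, have counts in both groups.

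Genes that build or serve the proteasome were read from lists written with earlier results of these data known, and the genes named from them below the fold threshold were chosen after their values were seen. Of 9 assembly factors and regulators, 6 were lower past the adjusted p and 1 was higher, with a median log2 fold change of -0.19, beside the 32.5% lower and 33.3% higher over all genes tested, which apply to each list below. The gene called higher was *REG*, which encodes the 11S activator, a cap that opens the core without using ATP. It was at 337, 324 and 336 CPM in *Nup98-96* RNAi libraries, against 231, 231 and 219 CPM in *white* RNAi libraries. The groups were far apart, and the log2 fold change was 0.55 (SE 0.04, adjusted p = 2.38e-05 in edgeR's quasi-likelihood test), in the opposite direction to the 19S particle. Of the alternatives run, only glmTreat lost this call. *Pomp*, a chaperone of core assembly, was at 62.8, 62.6 and 63.1 CPM in *Nup98-96* RNAi libraries, against 80.4, 87.8 and 87.7 CPM in *white* RNAi libraries (log2 fold change -0.44, adjusted p = 0.00013, same test). The deubiquitinases that sit on the particle, *Usp14* and *Uch-L5*, were at -0.41 and -0.29, and the small lid subunit gene *Sem1*, whose symbol the selection rule does not cover, was at -0.31. These genes lay within the range of the main copies, as did *CG8858* (-0.19) and *Kcmf1* (-0.15). *REG*, *PI31* (0.04) and *CG9588* (-0.07) lay above that range, and neither *PI31* nor *CG9588* was past an adjusted p of 0.05.

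Of 9 genes for ubiquitin, its activating enzyme and shuttle factors, 3 were higher and 2 were lower past the adjusted p, with a median of 0.06 and none past the fold threshold by edgeR, shares near those over all genes tested. All 4 matched partners of the TER94 segregase, which extracts proteins for degradation, were lower past the adjusted p (median -0.24) without reaching the fold threshold, and 6 of 8 genes of the COP9 signalosome, a complex built on the plan of the lid, were lower and 1 was higher (median -0.17). *cnc*, whose product belongs to the transcription factor family that induces subunit genes, was at 245, 229 and 228 CPM in *Nup98-96* RNAi libraries, against 188, 201 and 219 CPM in *white* RNAi libraries. These groups did not overlap, and the log2 fold change was 0.21 (adjusted p = 0.0216 in edgeR's quasi-likelihood test), opposite in sign to the subunits. The adjusted p of *cnc* was 0.0787 without *Nup98-96* RNAi library 1 and 0.066 without *white* RNAi library 2, and 0.0504 with the replicate number as a block. Its dimer partner *maf-S* was at 0.16 and its inhibitor *Keap1* at 0.12 (adjusted p = 0.0395 and 0.0538). Of 15 autophagy genes tested, the other main route of degradation, 6 were higher and 4 lower past the adjusted p (median 0.03), also near the shares over all genes tested, and 2 were called higher, beside 15.3% of all genes. *ref(2)P*, the receptor that carries ubiquitinated cargo to autophagosomes, was at 314, 294 and 270 CPM in *Nup98-96* RNAi libraries, against 108, 112 and 115 CPM in *white* RNAi libraries (log2 fold change 1.39, adjusted p = 3.64e-06, same test), and *Atg17*, of the kinase complex that starts autophagy, was at 127 ± 0.274 CPM in *Nup98-96* RNAi discs and 65.9 ± 2.95 CPM in *white* RNAi discs (SD, n = 3 each), with a log2 fold change of 0.94 (adjusted p = 3.13e-06 in edgeR).

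**Figure D5:**
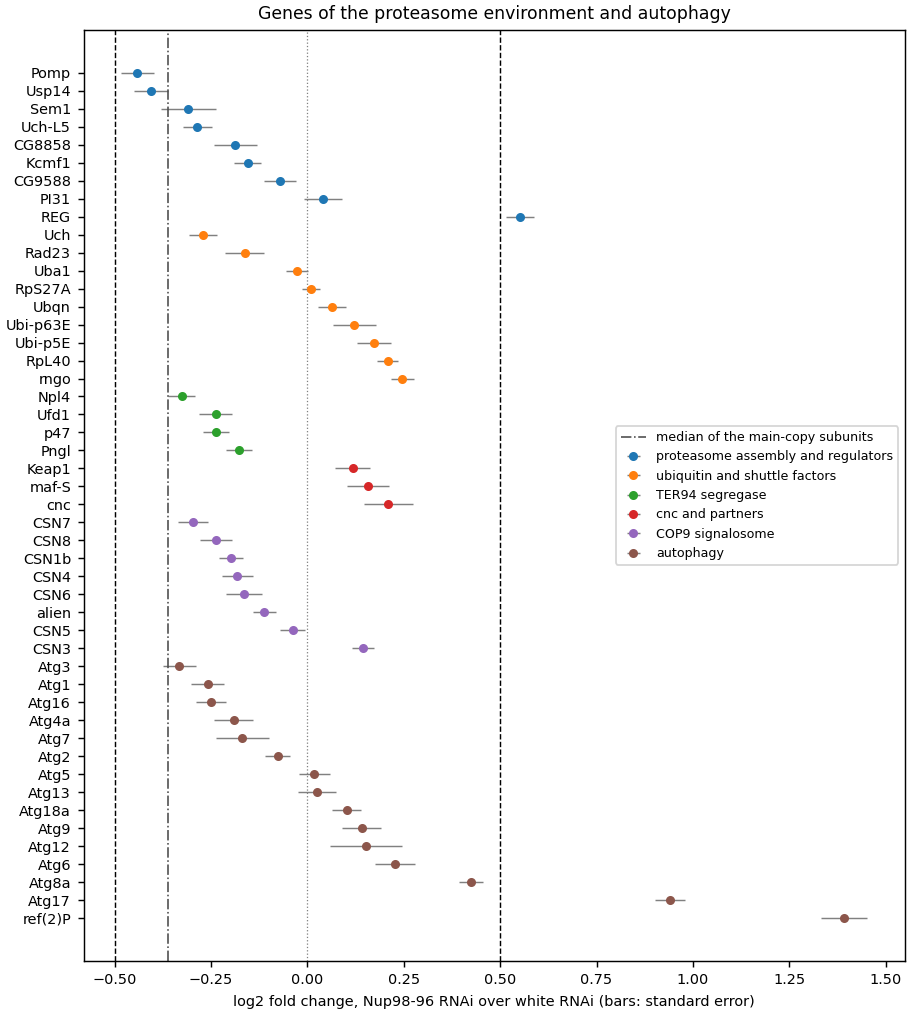
Log2 fold change, *Nup98-96* RNAi over *white* RNAi, with standard error (x axis) of genes of 6 lists around the proteasome, sorted within each list, with dashed lines at -0.5 and 0.5 and a dash-dotted line at the median of the main copies (-0.36). *Pomp* and *Usp14* lie left of that median, and *REG*, *Atg17* and *ref(2)P* lie right of 0.5.

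Markers of other cells moved together with the subunits in part. The sum over 5 myoblast markers was 168 to 177 CPM with *Nup98-96* RNAi and 237 to 265 CPM with *white* RNAi (*Him*, *zfh1* and *twi* called lower, 3 of 5). Over the 2 genes listed as tracheal markers it was 324 to 334 CPM with *Nup98-96* RNAi and 529 to 575 CPM with *white* RNAi (*trh* and *vvl*, 2 of 2 called lower). Most of that sum was *vvl*, at 282 CPM with *Nup98-96* RNAi and 474 CPM with *white* RNAi. *trh* was at 46.0 CPM with *Nup98-96* RNAi and 83.0 CPM with *white* RNAi. Whether the reads of *vvl* came from tracheal cells was not tested. Of the 4 epithelial markers 3 were called lower (*Dll*, *nub* and *vg*). Hemocyte markers summed to 16.3 to 32.0 CPM with *Nup98-96* RNAi and 22.0 to 33.2 CPM with *white* RNAi, with 2 of 4 tested called lower (*NimC2* and *eater*). Of the 6 fat body markers 1 was called lower (*Fbp1*). *Fbp1* was at 2.77, 7.38 and 6.65 CPM in *Nup98-96* RNAi libraries, against 325, 7.49 and 35.6 CPM in *white* RNAi libraries, the highest being library 1. Over all genes tested 11.2% were called lower, the share to set beside each of these counts. Without *white* RNAi library 1, which held the high fat body markers, the subunit difference was larger, as given above. No such comparison was made for the other markers. The part of any of these cells in the subunit values was not tested.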

How the data were processed

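The authors aligned reads to BDGP6.82 with Rsubread v1.21.5 and counted them per gene with featureCounts, without strand although the libraries were directional. The deposited counts are whole numbers, not normalized. A second deposited table holds the authors' own comparison (log2 fold changes, average expression, p-values and related statistics) and was not used. The submitters' notes name FastQC, edgeR 3.13.4 and limma.

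The test on counts was the quasi-likelihood F-test of edgeR 4.0.16 (R 4.3.3, TMM scaling), with Benjamini-Hochberg adjustment over 7942 genes above 200 normalized counts in a library. That limit gave the highest Jaccard similarity index of those searched (1 to 200) and is the upper end of the search. The study used voom on CPM, which was run here on counts. Calls required an adjusted p under 0.05 together with a log2 fold change beyond 0.5 in either direction. Replicates were further apart than sampling noise allows, with 16.0 to 166 as chi-square per degree of freedom over pairs. The largest values, 99.6 and 166, were those of *white* RNAi library 1 with libraries 2 and 3. All 6 libraries were kept. Symbols, positions and exon lengths came from the BDGP6 gene annotation, matched on identifiers (17253 genes). CPM per kilobase used merged exons.

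Members and lists were chosen with earlier results of these data known. Named with values in every library are the called members, the highest and lowest log2 fold change in each ring or particle, and paralogs of at least 1 CPM, with others named for their role. In each list the 2 highest and 2 lowest calls are named. Alternatives were other scalings, filters and tools (DESeq2 1.42.0, limma 3.58.1), no minimum fold, glmTreat, a replicate block and leaving out each library. Several list symbols had no match and are not analysed here (*Ecm29*, *TER94*, *ap*, *btl*, *rye* and *vas*).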

Additional observations from a re-analysis of the deposited data

How the results depend on the processing

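All 32 main copies kept a negative log2 fold change under every alternative run, and the medians of core, base and lid moved by less than the spread between libraries. The number of subunit genes called lower (3) was 1 with upper-quartile scaling, 32 with no minimum fold change and 0 with glmTreat, and 1 (without *white* RNAi library 3) to 5 (without *white* RNAi library 1) when libraries were left out. The number called higher (0) was 1 with filterByExpr (*Prosbeta4R2*) and 3 with no filter (with *Prosbeta4R1* and *Prosbeta5R2*). All 3 had 0 counts in every *white* RNAi library, so *Prosbeta4R2* passed filterByExpr only through the *Nup98-96* RNAi libraries. The *Prosbeta4R* pair lies in the stretch of 2L described above. Over all genes, 1219 were called higher and 890 lower, against 1873 higher with filterByExpr and 1950 with no filter, and 2641 higher and 2585 lower with no minimum fold change. The log2 fold change of *Rpt3R* (-0.05) was -0.13 to 0.033 when libraries were left out, and it turned to 0.017 without *Nup98-96* RNAi library 1 and to 0.033 without *white* RNAi library 3. The cause was not tested. The replicate numbers are shared by the groups but did not pair the libraries (correlations of same-numbered deviations -0.167, 0.0002 and 0.0124), and a fit with the replicate number as a block called 3 subunit genes lower, the same genes. At 3 libraries a group, the 95% interval of *Rpt4* (-0.19 to 0.01) spans 0.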
